A study of Mus musculus with 15 samples.

Results

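Haptoglobin, ceruloplasmin and other genes of the acute phase response, with cytokines, a transcription factor and a feedback inhibitor that act on them, were followed across 15 Affymetrix arrays of mouse NIH3T3 fibroblasts. The 10 genes were Hp, Cp, Lcn2, Saa3, Serpina3n, Serpina3g, Il6, Lif, Stat3 and Socs3. Every probe set (a group of short probes read together as 1 value) annotated to 1 of these symbols and to no other gene was taken. Whether their probes also read other transcripts was not tested. That gave 22 of the 45101 probe sets on the array, covering 9 genes: 8 for Cp, 4 for Stat3, 3 for Socs3, 2 for Lif and 1 each for Hp, Lcn2, Saa3, Serpina3n and Il6. No probe set named Serpina3g alone, so it has no value. The set was chosen by results of these same arrays, the high Hp of the Runx2 line and the high Cp of the Runx1 line, so those differences are described without a test and support nothing.

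The study set the mouse Runx transcription factors side by side in cells retrovirally transduced with the pBabe-puro vector. Constitutive lines carried murine Runx1, Runx2 or Runx3 (2 arrays each) or human RUNX1 (1 array), and an inducible line carried RUNX1-ER, a fusion with the estrogen receptor whose activity is switched on by the tamoxifen metabolite 4-OHT. RUNX1-ER cells and cells with the empty vector were each measured without and with 4-OHT (2 arrays each), which made 8 groups in all. All cultures grew to confluence over 7 days and were exposed to 0.2% ethanol for 24 h, with or without 4-OHT at a stated 0.1 mM. The labels do not say which of those exposures a constitutive line had, nor whether a line was a pool or a clone. They call the arrays biological replicates but name no separate cultures, and each p-value rests on how far these arrays of a group lay apart, a spread that may be technical. In bulk RNA, fewer cells of a type and less RNA per cell cannot be told apart.

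The acute phase response is the change in plasma protein synthesis that follows infection or injury, mostly in the liver. Interleukin 6 and its relatives, such as leukemia inhibitory factor, act through a shared receptor chain and the transcription factor STAT3, which switches on acute phase genes together with C/EBP factors. SOCS3, itself a STAT3 target, binds the receptor complex and shuts the signal down. Fibroblasts can make both the cytokines and some of these proteins, and Runx factors are DNA-binding regulators of blood and bone development.

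Promoter sequence was drawn from RefSeq windows on GRCm38.p6, which were found for 9 of the 10 genes, Hp being the one without. Each window was searched on both strands for the Runx core motifs TGTGGT and TGCGGT, the C/EBP motif TTGCNNAA and the STAT motif TTCNNNGAA. These letters were also found in 16.8%, 6.45%, 10.8% and 8.30% of all 32851 windows of 300 bases, so a match is a description and not a site. The bases up to the gene start are printed for Cp, the member with the most probe sets and the one that was high in the Runx1 line, and for Lcn2, Il6 and Lif, which stayed dim; all are written 5′ to 3′ on the gene's strand with any match in capitals. The Cp stretch lies at chr3:19956804-19956932 (plus strand), Lcn2 at chr2:32387740-32387989 (minus), Il6 at chr5:30012864-30013113 (plus) and Lif at chr11:4257318-4257567 (plus). The capitals mark a C/EBP match in Lcn2 and Il6 and the Runx core TGTGGT in Lif. None of these motifs was found in the printed bases of Cp, while its second window, not printed, held a C/EBP match. Of the windows not printed, Saa3 also held a C/EBP match, Socs3 a STAT match and Serpina3g a STAT match and TGTGGT.
Cp: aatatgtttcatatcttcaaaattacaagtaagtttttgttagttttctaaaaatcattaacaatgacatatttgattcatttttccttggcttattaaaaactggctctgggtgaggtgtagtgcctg
Lcn2: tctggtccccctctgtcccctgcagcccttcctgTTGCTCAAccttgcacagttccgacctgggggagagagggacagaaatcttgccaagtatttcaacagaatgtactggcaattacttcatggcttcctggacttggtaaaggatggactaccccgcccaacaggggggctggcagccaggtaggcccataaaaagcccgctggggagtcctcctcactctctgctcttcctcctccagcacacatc
Il6: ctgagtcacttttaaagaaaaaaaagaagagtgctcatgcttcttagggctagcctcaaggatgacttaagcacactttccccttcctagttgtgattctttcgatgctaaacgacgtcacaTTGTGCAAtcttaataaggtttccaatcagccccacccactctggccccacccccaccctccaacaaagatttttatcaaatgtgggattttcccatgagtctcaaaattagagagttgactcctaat
Lif: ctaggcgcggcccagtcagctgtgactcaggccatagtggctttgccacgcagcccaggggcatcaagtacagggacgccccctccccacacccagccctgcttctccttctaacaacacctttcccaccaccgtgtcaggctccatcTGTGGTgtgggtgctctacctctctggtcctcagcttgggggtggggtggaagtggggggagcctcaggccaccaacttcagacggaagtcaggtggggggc

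Of the 9 genes with a probe set, 6 had no call in any of the 12 comparisons fitted (Il6, Lcn2, Lif, Saa3, Serpina3n and Stat3). The other 3 were Socs3 and, through the differences they were chosen by and in the lone human RUNX1 array, Hp and Cp. A call, or passing, means an adjusted p under 0.05 in limma, with 1 fit to all 15 arrays and p-values adjusted by Benjamini and Hochberg's method over 45037 probe sets. In the RUNX1-ER cells given 4-OHT, the 3 Socs3 probe sets rose. In the single human RUNX1 array, Hp and Cp read higher than in vector cells. The name of the set goes further than these data: Il6, Lif, Lcn2, Saa3 and Serpina3n lay in the lower or middle part of their array's range in every sample.

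**Figure D1:**
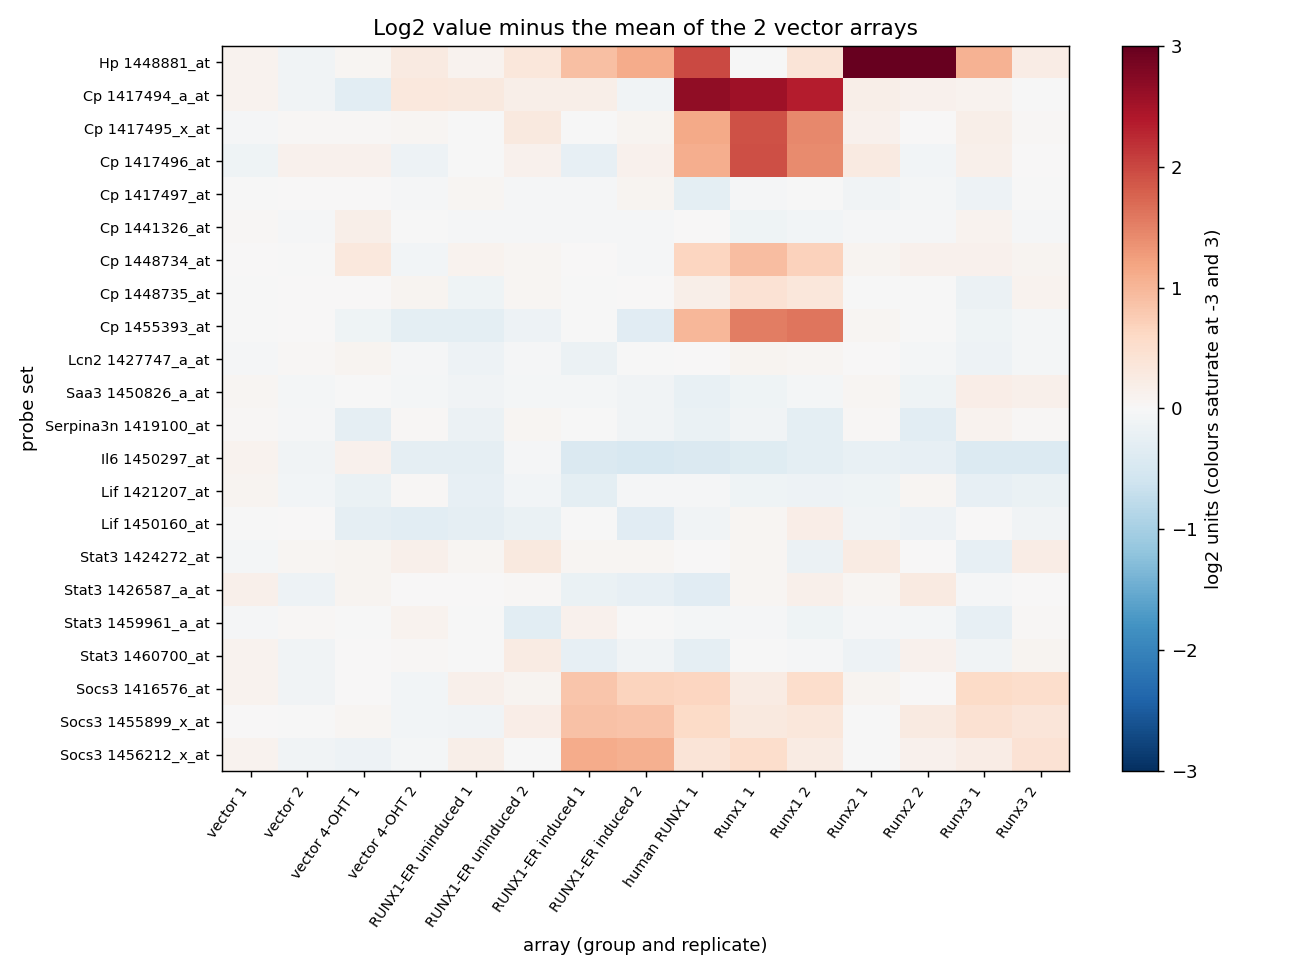
Each row is 1 of the 22 probe sets, each column 1 of the 15 arrays, and the colour is the log2 value minus the mean of the 2 vector arrays, saturating at 3 log2 units either way. Colour is deepest for Hp in the Runx2 line and for Cp in the Runx1 and human RUNX1 lines, Hp is also raised in the human RUNX1 array, paler colour marks Hp and Socs3 in induced RUNX1-ER cells, and the rows of Il6, Lif, Lcn2, Saa3 and Serpina3n are pale throughout.

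Hp encodes haptoglobin, the plasma protein that binds free hemoglobin. Its probe set, 1448881_at, read 7.91 and 7.72 log2 units in the Runx2 line against 4.02 and 3.80 in vector cells. The human RUNX1 array read 5.88, the induced RUNX1-ER arrays 4.82 and 5.03, and the Runx3 arrays 4.96 and 4.13. The rest lay together: 3.90 and 4.29 in the Runx1 line, 4.01 and 4.25 in uninduced RUNX1-ER cells, and 3.96 and 4.19 in vector cells with 4-OHT. The Runx2 arrays therefore stood apart from all others, and the human RUNX1 array came next.

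By group, the Hp mean was 7.82 ± 0.130 (SD, n = 2) in Runx2 cells and 3.91 ± 0.156 (SD, n = 2) in vector cells, a difference of 3.91 log2 units (SE 0.215). Then came human RUNX1 with its single array, induced RUNX1-ER at 4.92 ± 0.147 and Runx3 at 4.55 ± 0.581 (SD, n = 2 each). A Runx3 array lay between the 2 induced RUNX1-ER arrays and the other below both, so those neighbours in the order do not separate. The lowest 4 groups, uninduced RUNX1-ER at 4.13, Runx1 at 4.10, vector with 4-OHT at 4.08 and vector at 3.91, overlapped or lay within their spread. The Runx3 difference from vector, 0.63, rested on 1 array: it was 1.05 without Runx3 replicate 2 and 0.22 without Runx3 replicate 1.

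**Figure D2:**
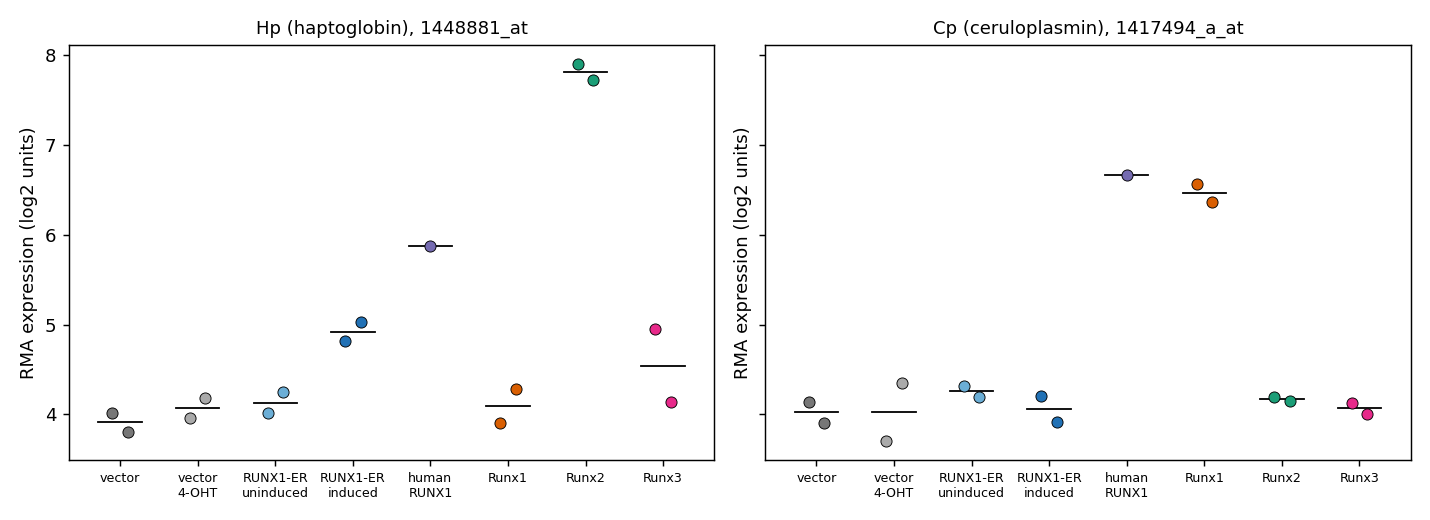
Points are single arrays and lines are group means, in log2 units of RMA expression, for Hp on the left and the brightest Cp probe set on the right, with the 8 groups along the x axis. The 2 Runx2 arrays lead for Hp and the Runx1 and human RUNX1 arrays for Cp, while induced RUNX1-ER cells lie above vector cells for Hp and among them for Cp.

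The differences that chose Hp were those of the Runx2 line; in RUNX1-ER cells, both induced arrays lay above both uninduced and all 4 vector arrays. The rise on induction was 0.79 log2 units (SE 0.215, 95% interval 0.33 to 1.26), with a limma adjusted p of 0.144, so it did not pass. Against vector cells with 4-OHT it was 0.85, with a limma adjusted p of 0.0678. That value fell to 0.0479 with 1 probe set per gene and to 0.0217 with an intensity trend in the variance. In the other 7 of 9 alternatives the difference did not pass either. The 4-OHT effect in RUNX1-ER cells exceeded that in vector cells by 0.63, an interval of -0.03 to 1.28 that includes 0. The human RUNX1 array was higher than the vector arrays by 1.97 and than the vector arrays with 4-OHT by 1.81, which is given as a description, since the group has a single array and no spread of its own.

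Cp encodes ceruloplasmin, the copper-carrying ferroxidase of plasma. Its brightest probe set, 1417494_a_at, read 6.57 and 6.37 log2 units in the Runx1 line and 6.67 in the human RUNX1 array. Vector cells read 4.14 and 3.91, and vector cells with 4-OHT 3.71 and 4.35. The Runx2 arrays read 4.20 and 4.15, the Runx3 arrays 4.13 and 4.00, uninduced RUNX1-ER cells 4.32 and 4.20 and induced ones 4.21 and 3.91. All 3 arrays of constitutive RUNX1 lines, mouse or human, thus lay above every other array, and the remaining arrays lay between 3.71 and 4.35.

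The Runx1 line exceeded vector cells in this probe set by 2.45 log2 units (SE 0.174). The single human RUNX1 array exceeded the vector arrays, with or without 4-OHT, by 2.65. In RUNX1-ER cells, 4-OHT changed Cp by -0.20 (95% interval -0.57 to 0.18, limma adjusted p 0.838), and induced cells differed from vector cells with 4-OHT by 0.03 (95% interval -0.34 to 0.41). Each interval runs from a fall to a rise. The change in the inducible line and the difference of the Runx1 line were not compared by a test. Cp thus read high in the arrays of both constitutive RUNX1 lines and was not detectably moved in the inducible line at 24 h, whereas Hp was high in the human RUNX1 array and at vector level in the mouse Runx1 line.

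The 8 Cp probe sets did not respond alike. In the Runx1 line 1417495_x_at was higher than vector by 1.68 log2 units, 1417496_at by 1.67, 1455393_at by 1.57 and 1448734_at by 0.81. The difference was 0.39 for 1448735_at, -0.03 for 1417497_at and -0.10 for 1441326_at, all 3 in the lower part of the range in every array. The human RUNX1 array gave smaller differences than the Runx1 line for 1417495_x_at (1.13), 1417496_at (1.10) and 1455393_at (1.01), while the brightest probe set gave a slightly larger one. Which parts of the transcript these probe sets read was not used here.

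**Figure D3:**
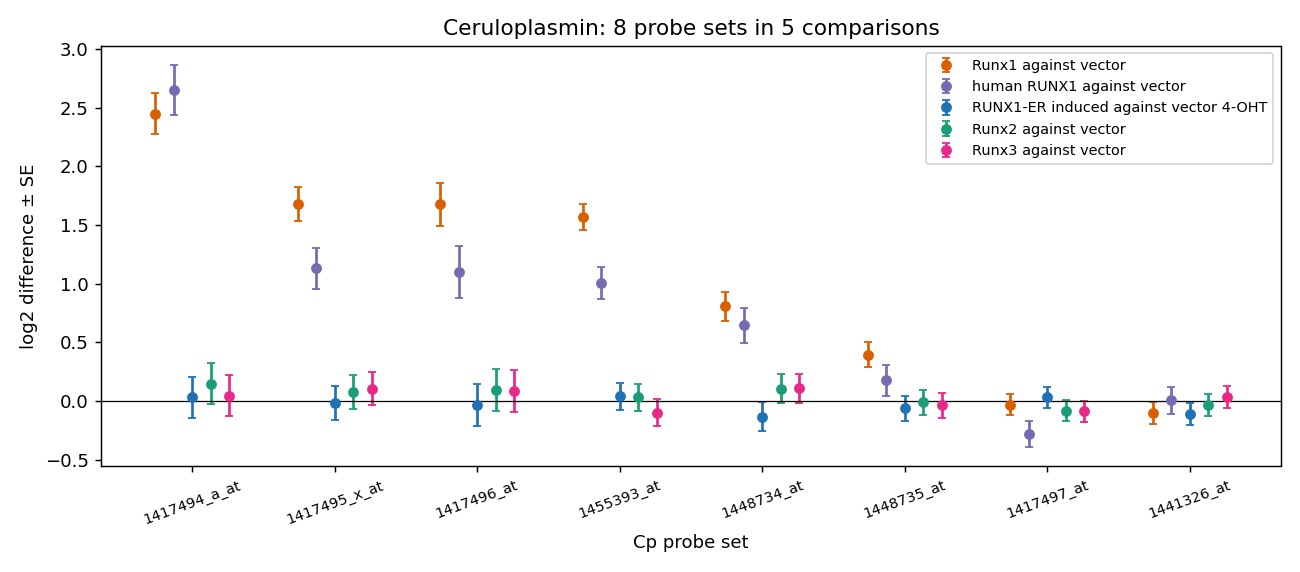
Log2 difference ± SE for each of the 8 Cp probe sets, ordered by the size of the Runx1 difference, in 5 comparisons shown by colour. The first 5 probe sets are raised in the Runx1 line and the human RUNX1 array and near 0 in the Runx2, Runx3 and induced RUNX1-ER comparisons, and the last 2 are near 0 or below it in all 5.

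The Hp and Cp calls counted next restate what chose the set, so nothing is read from them beside the shares of all probe sets that passed, given as the background. Between constitutive lines and vector cells, 5 of 22 probe sets passed for Runx1, all of Cp and all higher (background 0.928%). For Runx2 only Hp passed (1 of 22, background 1.37%), and for Runx3 only 1 Socs3 probe set (1 of 22, background 5.10%). Between lines, 6 passed for Runx2 against Runx1, Hp higher and 5 Cp probe sets lower (background 0.770%), and 6 Cp probe sets were lower for Runx3 against Runx1 (background 3.58%). For Runx3 against Runx2, 2 passed, Hp lower and 1 Socs3 probe set higher (background 1.79%). These comparisons share their vector, Runx1 or Runx2 arrays. In the human RUNX1 array, a lone array assumed to vary like the other groups, 7 of 22 passed, all higher (Hp, 5 of Cp and 1 of Socs3; background 4.31%).

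The remaining acute phase proteins were dim. Lcn2, a siderophore-binding lipocalin, ranged from 3.05 to 3.32 log2 units over the 15 arrays, between the 13.7th and 31.4th percentile of its array. Saa3, an extrahepatic serum amyloid A, ranged from 3.51 to 3.94, and Serpina3n, a serine protease inhibitor, from 3.42 to 3.83. The median probe set of an array read 3.69 to 3.75, so the highest values of Saa3 and Serpina3n reached just past the middle of the array. None of the 3 passed in any comparison. The Runx3 line held the highest Saa3 mean, 3.91 ± 0.0421 (SD, n = 2), against 3.74 ± 0.0673 in vector cells.

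Of the cytokines, Il6 encodes interleukin 6, the main inducer of the response. It read 3.60 and 3.40 log2 units in vector cells, 3.63 and 3.22 with 4-OHT, and 3.10 and 3.08 in the Runx3 line. It was also low in induced RUNX1-ER cells (3.06 and 3.03) and in the human RUNX1 array (3.06), with the Runx1 line at 3.15 and 3.20, the Runx2 line at 3.27 and 3.26 and uninduced RUNX1-ER cells at 3.23 and 3.47. The Runx1, Runx2, Runx3, human RUNX1 and induced RUNX1-ER arrays lay below both vector arrays without 4-OHT, and an uninduced RUNX1-ER array did not; no difference passed. For Runx3 it was -0.41 (SE 0.130) with a limma adjusted p of 0.103, and all values were between the 12.2th and 46.6th percentile of their array, where differences are compressed.

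Lif encodes leukemia inhibitory factor, a cytokine of the interleukin 6 family. Its probe set 1421207_at ranged from 3.23 to 3.60 log2 units and 1450160_at from 3.25 to 3.79, with no comparison passing. The Runx1 line had the highest mean of 1450160_at, 3.73 ± 0.0917 (SD, n = 2), against 3.60 ± 0.0216 in vector cells, and the Runx3 line the lowest mean of 1421207_at. The Runx core in its printed promoter therefore stood beside no measurable change in these dim probe sets, which says nothing about binding.

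Stat3, the transcription factor downstream of the receptors, was well expressed and steady. Its brightest probe set, 1426587_a_at, read 8.11 and 7.81 log2 units in vector cells, 8.02 and 8.11 in the Runx1 line, 8.01 and 8.22 in the Runx2 line and 7.93 and 7.98 in the Runx3 line. It read 7.75 and 7.70 in induced RUNX1-ER cells against 7.98 and 7.99 uninduced, and 7.61 in the human RUNX1 array. The induced arrays lay below both uninduced ones, a difference of -0.26 (95% interval -0.50 to -0.02) with a limma adjusted p of 0.501. The second bright probe set, 1460700_at, gave -0.29 on induction and spanned 6.70 to 7.21, and the other 2 probe sets were dim at 3.23 to 3.96. Only RNA was measured, so the phosphorylation that activates STAT3 is outside these values.

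Socs3, the feedback inhibitor, was the only member to pass on RUNX1-ER induction, where Hp rose by 0.79 log2 units without passing. Probe set 1456212_x_at read 6.86 and 6.83 log2 units in induced cells against 5.93 and 5.74 in uninduced cells. In vector cells it read 5.87 and 5.64 without 4-OHT and 5.60 and 5.69 with it. The induced arrays lay above all 13 others, since the Runx1 line read 6.29 and 6.00, the Runx2 line 5.75 and 5.90, the Runx3 line 5.98 and 6.19 and the human RUNX1 array 6.14.

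The brightest probe set, 1455899_x_at, showed the same order at the top: 8.15 and 8.12 in induced cells against 7.16 and 7.47 in uninduced cells and 7.83 in the human RUNX1 array. It read 7.27 and 7.25 in vector cells and 7.32 and 7.17 with 4-OHT. The third, 1416576_at, read 6.80 and 6.64 in induced cells, 6.12 and 6.04 in uninduced cells, 6.07 and 5.85 in vector cells and 5.98 and 5.88 with 4-OHT. In all 3 probe sets the induced pair lay above uninduced and vector pairs without overlap.

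On induction Socs3 rose by 1.01 log2 units in 1456212_x_at (SE 0.125, limma adjusted p 0.00105), by 0.82 in 1455899_x_at (limma adjusted p 0.00383) and by 0.64 in 1416576_at (limma adjusted p 0.0162). Counted by gene at its brightest probe set, 1 of 9 members passed, against 1.41% of all genes. These 3 probe sets of 1 gene were the only ones of 22 to pass, against 0.950% of all. The second of them missed the threshold without induced replicate 1 (adjusted p 0.0533) and in a fit to the compared groups alone (0.129). The third missed it without uninduced replicate 2 (0.168), without induced replicate 1 (0.197) or 2 (0.0645), and in the smaller fit (0.137). Set against vector cells that also had 4-OHT, the same 3 of 22 passed (background 1.95%), with differences of 1.20, 0.89 and 0.78.

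4-OHT alone moved none of the 22 probe sets in vector cells (background 0%; at an unadjusted p under 0.05 limma gave 1 member, Lif 1450160_at, and 2773 of all probe sets). Uninduced RUNX1-ER cells against vector cells likewise gave 0 of 22 (background 0.00888%), with the same Lif probe set as the 1 member at an unadjusted p under 0.05 and 2985 of all probe sets. The difference between the 4-OHT effects in RUNX1-ER and vector cells is the test of induction beyond the drug. By gene at the brightest probe set, 0 of 9 members passed in it, against 0.478% of all genes. There Socs3 1456212_x_at passed at 1.12 (SE 0.177, limma adjusted p 0.0137), the 1 of 22 to do so against 0.329% of all, while 1455899_x_at at 0.84 (adjusted p 0.0697) and 1416576_at at 0.66 (adjusted p 0.159) did not. The call was lost without uninduced replicate 2 (0.0718), induced replicate 1 (0.0811) or 2 (0.0675), vector replicate 1 (0.0985) or vector 4-OHT replicate 1 (0.0558), at differences between 1.01 and 1.14.

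**Figure D4:**
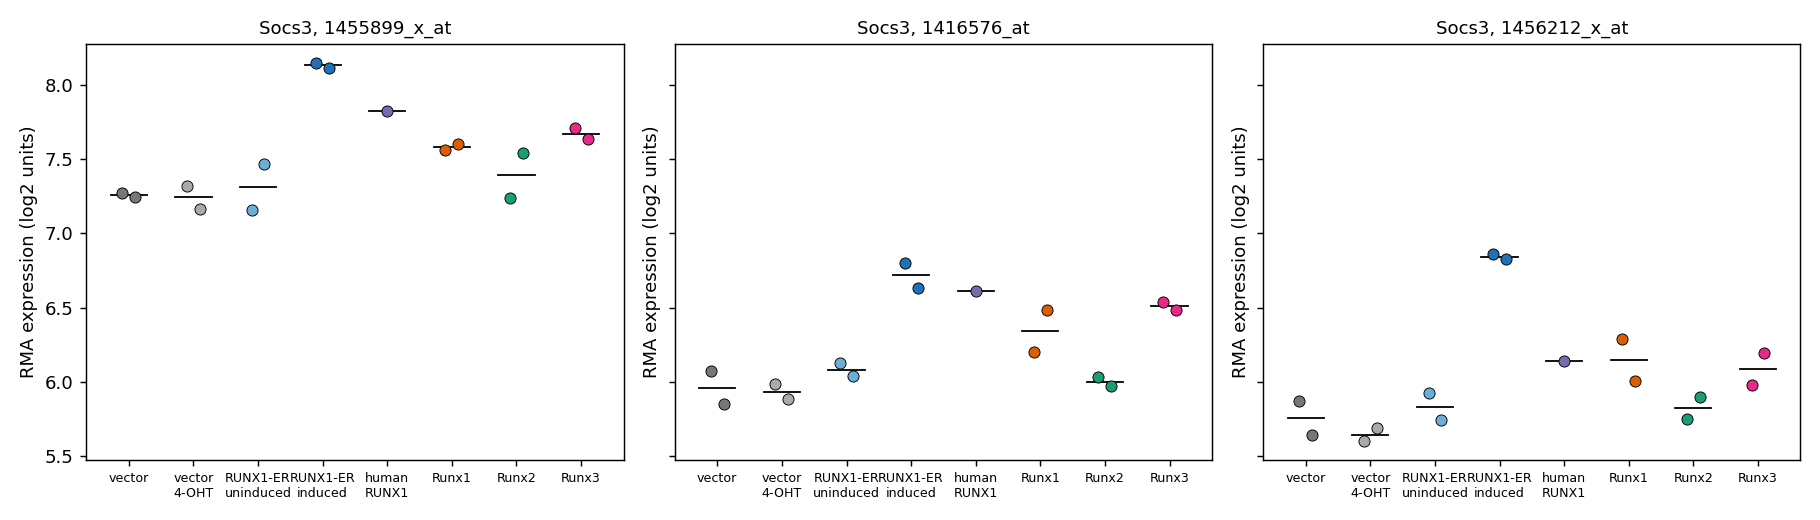
Points are single arrays and lines are group means in log2 units for the 3 Socs3 probe sets, with the 8 groups along each x axis. The induced RUNX1-ER pair is the highest in each panel, and vector, vector with 4-OHT and uninduced RUNX1-ER cells lie close together.

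Among the constitutive lines Socs3 differences were smaller. In the Runx3 line 1416576_at read 6.54 and 6.49 log2 units and rose by 0.55 over vector cells (limma adjusted p 0.0113), a call lost without vector replicate 2 (0.155), Runx3 replicate 1 (0.0804) or Runx3 replicate 2 (0.0608). The other probe sets gave 0.41 (adjusted p 0.0780) and 0.33 (adjusted p 0.209). Against the Runx2 line the same probe set was 0.51 higher (adjusted p 0.0416), which failed without any 1 of the 4 arrays compared (0.138 to 0.192). In the Runx1 line the 3 differences were 0.32, 0.38 and 0.39 and none passed, and in the lone human RUNX1 array 1416576_at was 0.65 higher (adjusted p 0.0195; 0.109 without vector replicate 2).

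Genes with the most similar profile over the 15 arrays were ranked by Pearson's r. The candidates were 1188 probe sets with 1 gene symbol whose group means spanned at least 1 log2 unit. The points share their lines and, for replicates, their line's level. Nearest to Hp were Ntmt1 (r = 0.857), Atp13a3 (0.820), Aspg (0.802), Ccn5 (0.792) and Akr1c14 (0.736), each highest in the Runx2 line. Nearest to the brightest Cp probe set were Tmem218 (0.927), Cldn9 (0.919), Sema5a (0.919), Itgbl1 (0.912) and Fah (0.892), with Sema5a highest in the human RUNX1 array and the other 4 in the Runx1 line. Spearman's rank correlation was lower, from 0.461 to 0.768 for the genes near Hp and from 0.415 to 0.831 for those near Cp. Hp and Cp were chosen for their high Runx2 and Runx1 arrays, so the lines in which these genes were highest were largely set in advance and support nothing. For Socs3, ranked after its values were seen, the nearest was Pgs1 (Pearson's r 0.867), the gene next to Socs3 with no gene between them in RefSeq's table. Of the 4 Pgs1 probe sets, 3 rose on RUNX1-ER induction, by 0.70, 0.87 and 0.86 log2 units (limma adjusted p 0.00136, 0.00631 and 0.00400). The fourth changed by 0.28 (adjusted p 0.542).

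Other genes of the response were read from 4 lists at the brightest probe set of each gene, in the comparisons of Runx1, Runx2 and Runx3 with vector and of induction beyond 4-OHT. Over all 18193 genes read the same way, 1.42%, 2.13%, 7.83% and 0.478% passed in these 4 comparisons. Of 29 further acute phase proteins 23 had a probe set. In the Runx1 line 0 rose and 1 fell, in the Runx2 line 0 passed, in the Runx3 line 2 rose and 1 fell (3 of 23, beside 7.83% of all genes), and beyond 4-OHT 0 passed (limma; 4 and 3 genes at an unadjusted p under 0.05 in the comparisons with 0). The list's medians were -0.035, 0.025, 0.018 and 0.060 log2 units, against -0.0073, -0.0051, 0.00014 and 0.046 over all probe sets. The Runx3 rises were Orm1 at 0.86 (adjusted p 0.00963) and Orm3 at 0.91 (adjusted p 0.0220), paralogs for acid glycoproteins of plasma whose probes may share transcripts.

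Orm1 read 3.86 and 4.15 log2 units in the Runx3 line, 2.98 and 3.31 in vector cells, 3.59 and 4.03 in the Runx2 line and 5.09 in the human RUNX1 array. Its Runx3 call was lost without vector replicate 1 (0.139) or Runx3 replicate 2 (0.123), and that of Orm3 without any 1 of the 4 arrays (0.0945 to 0.152). The genes that fell were Mt1, a metallothionein, by 0.59 in the Runx3 line, and Tfrc, the transferrin receptor, by 1.05 in the Runx1 line. Each has other probe sets that did not pass, and Tfrc was lost without vector replicate 1 (0.199), vector replicate 2 (0.135) or Runx1 replicate 2 (0.193). Without Runx1 replicate 2 the Tfrc difference was -0.67, and without replicate 1 it was -1.43.

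Of 12 further ligands and receptors of the interleukin 6 family 9 had a probe set. In the Runx3 line 2 of 9 fell, where 7.83% of all genes passed: Ctf1 (cardiotrophin 1) by 0.92 log2 units (limma adjusted p 0.00168) and Osmr (the oncostatin M receptor) by 0.90 (adjusted p 0.000643), the latter in 1 of its 3 probe sets. In the Runx1, Runx2 and beyond-4-OHT comparisons 0 of 9 passed (limma; 2, 1 and 1 at an unadjusted p under 0.05). Medians were -0.12, -0.09, -0.17 and -0.021 in the order Runx1, Runx2, Runx3 and beyond 4-OHT. Il6st, the shared receptor chain gp130, was abundant at 8.45 in vector cells and differed by -0.39 in the Runx3 line (adjusted p 0.105). Of 23 genes of interleukin 1 and NF-kB signalling, which drives the other branch of the response, 22 had a probe set and 0 passed in any of these 4 comparisons (limma; 1, 1, 5 and 1 at an unadjusted p under 0.05).

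Of 17 further genes of JAK-STAT signalling and its feedback 16 had a probe set. In the Runx1 line 1 rose and 1 fell, in the Runx2 line 1 fell, in the Runx3 line 3 rose and 1 fell, and beyond 4-OHT 1 rose and 1 fell. The shares of all genes were 1.42%, 2.13%, 7.83% and 0.478%, and with 16 genes these are small counts. Cebpd, the C/EBP factor named for its place in the acute phase response, fell, with differences of -0.99, -1.73 and -2.34 log2 units in the Runx1, Runx2 and Runx3 lines (limma adjusted p 0.000873, 5.11e-06 and 7.55e-08). It read 9.53 and 9.22 in vector cells, 8.38 and 8.39 in the Runx1 line, 7.56 and 7.72 in the Runx2 line and 7.05 and 7.02 in the Runx3 line, with no overlap. Its second probe set did not pass in any of the 3 (-0.01, -0.54 and -0.21). The brightest Cebpd probe set was thus low in the Runx1 and Runx2 lines and lowest in the Runx3 line. Its relation to Hp and Cp was not tested.

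Beyond 4-OHT, Cebpd fell by 1.07 in RUNX1-ER cells (limma adjusted p 0.0159), a call lost without any of 5 single arrays, namely uninduced replicate 2 (0.0820), induced replicate 1 (0.0866) or 2 (0.0751), vector replicate 2 (0.0858) and vector 4-OHT replicate 1 (0.0640). Junb, an early-response transcription factor, rose beyond 4-OHT by 2.10 log2 units (SE 0.263, adjusted p 0.00265). It read 7.06 and 6.96 in induced cells, 4.92 and 5.09 in uninduced cells and 5.92 and 5.50 in vector cells, and kept its call without each array in turn. In the Runx3 line Junb rose by 1.61 (adjusted p 0.000108). Pim1, a kinase induced by cytokines, rose in 1 of its 2 probe sets by 0.80 in the Runx1 line and 0.96 in the Runx3 line. Stat5a rose by 0.48 in the Runx3 line (adjusted p 0.0345), lost without vector replicate 1 (0.196), vector replicate 2 (0.155) or Runx3 replicate 1 (0.254).

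**Figure D5:**
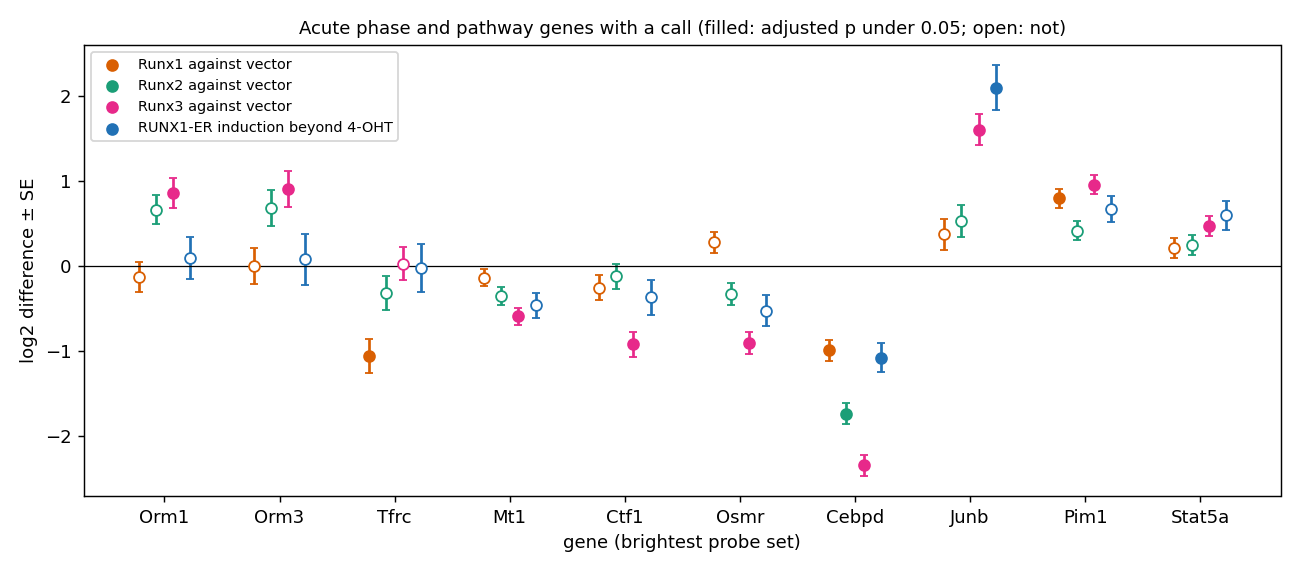
Log2 difference ± SE of the brightest probe set of each of 10 acute phase or pathway genes with a call, in 4 comparisons shown by colour, with filled points for an adjusted p under 0.05. Cebpd is below 0 and filled in all 4 comparisons, Junb is highest for Runx3 and for induction beyond 4-OHT, and Orm1 and Orm3 are filled for Runx3 alone.

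The arrays carried a fibroblast profile, with a mean of 10.5 to 10.9 log2 units over 10 fibroblast markers in each array. Single markers moved: 1 rose and 2 fell of 10 in the Runx1 line and likewise in the Runx2 line (Pdgfrb higher, Pdgfra and Dcn lower), 2 rose and 4 fell in the Runx3 line, and Pdgfra fell on induction by 0.65. Over all genes read the same way, 1.42% passed for Runx1, 2.13% for Runx2, 7.83% for Runx3 and 1.41% for induction. These shares also stand beside the marker counts that follow. Means of the measured hepatocyte markers were 4.04 to 4.21 (Alb, albumin, at 3.42 in vector cells), of macrophage markers 3.66 to 3.84 and of endothelial markers 3.33 to 3.44. Beside the high Hp of the Runx2 line, adipocyte markers averaged 3.96 against 3.72 in vector cells, with 1 of 8 higher (Lpl, by 1.49). Epithelial markers averaged 3.88 against 3.75, with 1 of 10 higher (Krt8, by 0.97). Beside the Socs3, Junb and Cebpd differences of the Runx3 line, 1 of 8 adipocyte markers was higher (Lpl, by 0.86) and 2 of 10 epithelial markers were (Krt8, by 2.72, and Cdh1, by 1.35), with a median of 0.034 over the epithelial list. The part of those markers in these results was not tested. The brightest probe set of mouse Runx1 read 9.11 and 9.30 in the Runx1 line and 4.45 to 4.88 elsewhere, the human RUNX1 and RUNX1-ER arrays included. Whether it can read the transgenes of those human RUNX1 and RUNX1-ER cells was not tested.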

How the data were processed

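The authors deposited log2 expression values, read with GCOS and normalised by the Robust Multichip Average (RMA) method, per the labels' protocols; RMA sets arrays to one distribution and compresses differences at low signal. The table holds no detection calls. Probe sets were named from the platform annotation: 34945 had 1 symbol, 932 several and 9160 none, and 64 control probe sets were left out. The values were fitted in limma 3.58.1 (R 4.3.3) with 1 mean per group (7 residual and 6.21 prior degrees of freedom), which was tested on simulated data. Differences are in log2 units, with 95% intervals from the same fit. From the pathway lists, up to 4 genes per list were named, with the largest change among those past the threshold in 1 of 4 comparisons. All members were named too. Il6st, cell type markers, iron handling genes and genes of similar profile were named outside that rule. The members and lists were chosen with earlier results of these data known. Alternatives were 1 probe set per gene, a mean above 5, an intensity trend, median centring, a replicate block, smaller fits, other control arrays and leaving out each array. The number of arrays limits the precision.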

Additional observations from a re-analysis of the deposited data

Results flagged for a closer look

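Socs3 1456212_x_at responded differently to 4-OHT in the 2 kinds of cell, by the test of the difference itself: the effect in RUNX1-ER cells exceeded that in vector cells by 1.12 log2 units (SE 0.177, limma adjusted p 0.0137). The 2 other Socs3 probe sets gave 0.84 and 0.66 and did not pass.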

How the results depend on the processing

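Over 60 differences of single genes, 569 alternative values were computed: 488 kept their direction and side of the threshold, 67 lost the call, 14 gained one and 0 changed direction. The 60 include the Hp and Cp differences that chose the set, so these totals support nothing about them. With 1 probe set per gene, the members passing became 1 for Runx1 against vector, 2 for Runx2 and 1 for Runx3 against Runx1, 1 for Runx3 set against Runx2, 1 for RUNX1-ER induction and 3 for human RUNX1, since 9 in place of 22 were tested. With probe sets of a mean above 5 only, which leaves 5 members and neither Hp nor Cp, they became 0 for Runx1 and 0 for Runx2 against vector, 2 for Runx3 against vector, 0 for Runx2 and 0 for Runx3 against Runx1, 1 for Runx3 against Runx2, 2 for induction beyond 4-OHT and 2 for human RUNX1. An intensity trend gave 2 for Runx3 against vector and 2 beyond 4-OHT; the cause was not tested. Fits to the compared groups alone gave 3 for Runx2 against Runx1, 1 for Runx3 against Runx2 and 1 for induction, with fewer samples. Leaving out 1 array gave 0 to 1 for Runx3 against vector, 1 to 1 for Runx3 against Runx2, 1 to 3 for induction and 0 to 1 beyond 4-OHT. Replicate numbers did not pair the samples: deviations of same-numbered arrays correlated between -0.109 and 0.144, above 0.1 in 1 of 21 pairs of groups. The replicate block gave 1 for Runx3 against Runx2, where Socs3 had an adjusted p of 0.0510, and changed no other count by over 1.5 times. Vector arrays with 4-OHT as controls left the counts of the mouse lines as they were. Low signal limits Il6, Lif, Lcn2, Saa3 and Serpina3n.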

Other observations

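Ceruloplasmin oxidises iron as it leaves cells, so 13 other genes of iron handling were read, a list written after the members' values were seen; 11 had a probe set. Slc40a1, which encodes the iron exporter ferroportin, was higher than in vector cells by 1.48 log2 units in the Runx1 line, 1.00 in the Runx2 line and 2.63 in the Runx3 line (limma adjusted p 0.00061, 0.0101 and 7.6e-07). The Runx2 call was lost without vector replicate 2 (0.143) or Runx2 replicate 2 (0.0791). On RUNX1-ER induction Slc40a1 rose by 1.12 (adjusted p 0.00545; 0.0632 without induced replicate 1 and 0.0693 without replicate 2), and Hmox1, the heme oxygenase, fell by 0.61 (adjusted p 0.0295). The other 9 measured genes did not pass in the Runx1, Runx2 or Runx3 comparisons with vector or on induction. Over all genes, 1.42%, 2.13%, 7.83% and 1.41% passed in these comparisons. For induction beyond 4-OHT 0 of the 11 passed, Slc40a1 and Hmox1 included, beside 0.478% of all genes (limma, with 2 of the 11 at an unadjusted p under 0.05).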
